A study of Mus musculus with 115 samples.

Results

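The synaptic adhesion molecules described here are 55 genes of 14 families, taken by symbol from the 22870 genes of the deposited count table: the neurexins Nrxn2 and Nrxn3, the neuroligins Nlgn1 to Nlgn3, and the Lrrtm, Slitrk, Tenm, Flrt, Lrfn, Adgrl, Cntn, Cntnap, Cbln, Lingo and Cadm families with the receptor phosphatases Ptprd, Ptprf and Ptprs. They were read in single dentate granule cells, the principal neurons of the dentate gyrus, of Rbp4-Cre mice. Each cell's cytosol was drawn into a patch pipette and sequenced (patch-seq). A retrograde AAV carrying EGFP had been injected in the right ventral hippocampus, so that EGFP marks cells with an axon to the opposite side. The left hippocampus had received either kainic acid (KA), an agonist of glutamate receptors used to provoke seizures, or saline. Both were given together with AAV.cDIO-mCherry, a Cre-dependent marker of the injection site. Cells were drawn on the left 2 weeks later, whether or not they showed mCherry. All groups therefore shared the Cre line, both viruses and the surgery, and the comparisons below differ by KA or saline and by EGFP class.

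The quality-controlled table held 95 of the 115 labelled cells: 27 KA EGFP+ cells, 36 KA EGFP- cells, 5 saline EGFP+ cells and 27 saline EGFP- cells. The study states that these classes came from 9, 3, 3 and 3 mice, in that order. It states 62 saline EGFP- cells sequenced and 57 passed, where 41 are labelled and 27 are in the table. Its numbers of passed cells for the other classes equal those in the table. Whether the 27 cells come from all 3 stated mice is not known, and no label ties a cell to a mouse. Each class is therefore treated as 1 sample, no test was possible, and every SD is a spread over cells. Sample titles fall in a first series (M1 to M48) and a second series (M201 to M272), and all saline cells belong to the second. Of the KA EGFP+ cells 24 belong to the first series and 3 to the second, and of the KA EGFP- cells 21 and 15. What the title series stand for is not stated. Of the 95 cells, 82 are labelled as having passed quality control and 13 as having failed, so the labels and the table do not match cell by cell; a shift of the treatment or EGFP labels of the same kind would alter every comparison.

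Total counts ran from 1277978 to 56183007 per cell (median 5221619). The median number of genes with a count was 6231 in KA EGFP+, 5698.5 in KA EGFP-, 4325 in saline EGFP+ and 4448 in saline EGFP- cells. First-series KA EGFP- cells had 6974 and second-series KA EGFP- cells 3707. The granule cell list of 10 markers had a count for 9, 9, 10 and 10 markers in the 4 groups, with Tdo2 at 0 in both KA groups. Its summed level had a median of 1020, 934, 2300 and 3750 CPM (counts scaled to a total of 1000000 per cell), in the order KA EGFP+, KA EGFP-, saline EGFP+ and saline EGFP-. Microglial markers were counted in every group, and 10 of 27, 4 of 36, 4 of 5 and 9 of 27 cells carried at least 0.1% of their counts in them. The 7 interneuron markers had a median summed level of 662, 761, 13.3 and 228.4 CPM and reached 0.1% of the counts in 11, 17, 0 and 4 cells. Of these markers Gad1 was counted in 24 of 27, 32 of 36, 3 of 5 and 24 of 27 cells and Gad2 in 8, 14, 2 and 4, while Slc32a1, Sst and Vip were at 0 in the KA EGFP- cells. The summed level of the 5 mossy cell markers was high after KA, but not every marker was. Median sums were 469, 1260, 0.221 and 1.1 CPM (ranges 0 to 11500, 0 to 38200, 0 to 80.6 and 0 to 713). At 0.1% or more were 12, 20, 0 and 0 cells. Cartpt alone had medians of 469, 1260, 0 and 0 CPM. Cartpt was counted in 20, 28, 1 and 5 cells, Ociad2 in 9, 17, 1 and 4, Calb2 in 0, 1, 2 and 12, Drd2 in 0, 1, 0 and 0 and Calcrl in 1, 0, 0 and 4. The part of these levels in the results below was not tested beyond leaving out the cells at 0.1% or more in microglial, mossy cell or interneuron markers. The last pair of these settings was chosen after seeing the data.

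Synaptic adhesion molecules join the axon terminal to the dendrite and help set where a synapse forms and what kind it becomes. Neurexins and the LAR-type receptor phosphatases sit mainly on the axon and bind different partners across the cleft: neuroligins and LRRTMs for the neurexins, Slitrks and some Lrfn proteins for the phosphatases. Latrophilins (the Adgrl genes) bind teneurins (Tenm) and FLRTs, and cerebellins are secreted proteins that bridge neurexins to glutamate delta receptors. Granule cells use this machinery at their mossy fibre terminals and on the dendrites that receive the perforant path.

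Of the 55 genes, 39 had a count in at least 20 of the 95 cells and are called measured, as were 9659 genes of the table. Most of the 95 cells are KA cells, so genes counted almost only after KA pass this limit more readily than genes counted almost only after saline. All of the Lrrtm, Nlgn, Nrxn, Ptpr and Tenm genes looked at were measured. None of the 4 cerebellins was measured; Cbln1 had a count in 8 cells, Cbln2 in 3, Cbln3 in 6 and Cbln4 in 1. Others with counts in few cells were Adgrl2 (6), Cadm4 (6), Cntn2 (15), Cntn3 (16), Cntn6 (3), Cntnap3 (1), Cntnap4 (3), Flrt2 (11), Lingo4 (5), Lrfn3 (11) and Slitrk6 (1). Just outside the limit lay Flrt1 with 19 cells, and just inside it Cntn4 with 21 and Lrfn2 with 22. The 39 measured members spanned long genes: their median extent in the GENCODE annotation of GRCm38 was 161.8 kb, against 26.12 kb for all measured genes, and 35.9% of them, against 1.56% of all, extended over more than 500 kb. Counts without strand information cannot separate overlapping genes, which touches Nlgn3 (41.2% of its exon bases are shared with Gm21986), Lrrtm4 (25.1%, Gm4409) and Adgrl1 (15.6%).

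The summed level of all 55 genes had a median of 4116 CPM in KA EGFP+, 3994 CPM in KA EGFP-, 685.1 CPM in saline EGFP+ and 2878 CPM in saline EGFP- cells. A cell of these groups had a count for a median of 27, 25, 15 and 21 of them. With every cell thinned to 1000000 counts the medians were 26, 23.5, 13 and 20. Over all titles, cells after KA thus held a count for more of these genes than the saline cells of the same EGFP class, before and after thinning. That order did not hold within the second title series for EGFP- cells, where the 15 KA cells had a median of 17 genes before thinning and 2768 CPM in sum. First-series KA EGFP- cells had 31 genes and 4435 CPM.

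Which member was most abundant depended on the group. Per kb of exon, Lrrtm1, a postsynaptic neurexin partner, had the highest mean in KA EGFP+ cells (101.0 CPM per kb), and it also led the saline EGFP- cells (85). Its lead in KA EGFP+ cells leans on few cells. There, before scaling by length, Lrrtm1 had a mean of 305 CPM but a median of 158 CPM (0 to 2846). Lingo1 had a mean of 381 CPM and a median of 282 CPM (0 to 1407). Among KA EGFP- cells Lrrtm1 came after Lingo1 (63.0 against 75.0 CPM per kb). Lingo1, a leucine-rich repeat protein known as a partner of the Nogo receptor, was also at 80.7 CPM per kb in KA EGFP+ cells. In saline EGFP- cells Flrt3 (51.9 CPM per kb), a latrophilin ligand, Cadm1 (41), an immunoglobulin-type molecule of both sides of the synapse, Cntn1 (28.4), a contactin anchored in the axon membrane, and Lrrtm4 (25.7) followed Lrrtm1. The spread over cells is wide enough that neighbours in this order overlap in every group.

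**Figure D1:**
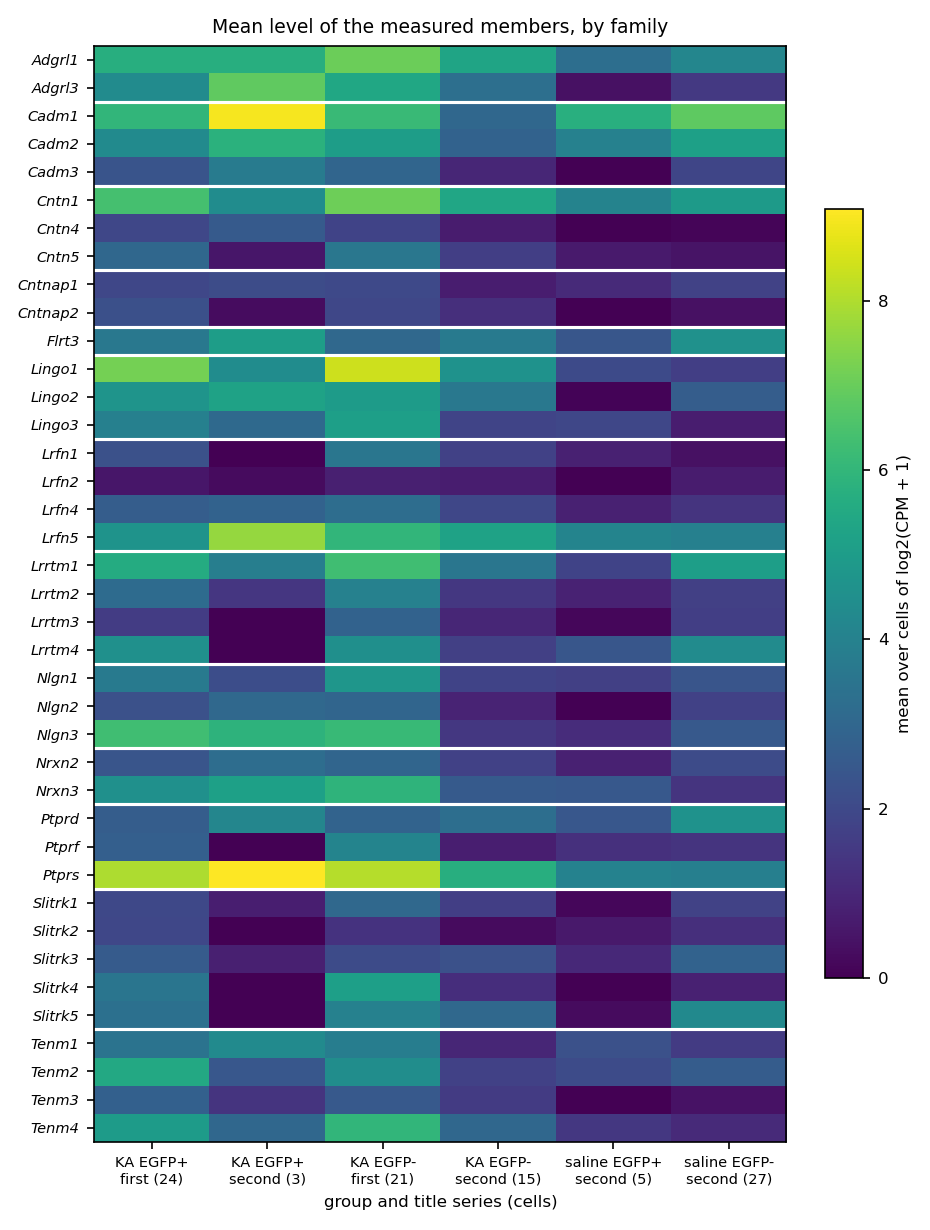
Mean log2(CPM + 1) over cells (colour) of the 39 measured members (rows, by family, white lines between families) in the KA and saline cells by EGFP class and title series (columns, number of cells in parentheses). Lingo1 and Ptprs are brighter in every KA column than in the saline columns, and in saline EGFP- cells Cadm1 is the brightest.

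The main comparison asked how the genes differed in EGFP- granule cells, 36 after KA against 27 after saline. A difference here is the mean of log2(CPM + 1) after KA minus that after saline, less the 0.43 by which the median measured gene differed, and a member is called higher or lower when this relative difference passes 1 log2 unit. The added 1 CPM understates the change of genes at low levels. Subtracting the median gene can also bring a gene near 0 past the limit, here and in every comparison below. Lrfn1, for example, averaged 0.85 in saline EGFP+ and 0.40 in saline EGFP- cells, yet its relative difference there was 1.04. By this rule 14 of the 39 measured members were higher after KA (35.9%), where 16.6% of all measured genes were. Another 7 were lower (17.9%), close to the 17% of all genes, and the median member lay at 0.77. The 14 included all 3 measured Lingo genes, both measured latrophilins and 2 of 4 teneurins, and the 7 included 2 of 3 Cadm genes. Without cells that carried 0.1% or more microglial counts 13 were higher and 7 lower (18.9% and 18.8% of all genes), and among cells labelled as passed 15 and 7 (18.1% and 18.6%). Without cells at 0.1% or more in mossy cell markers, 16 KA against 27 saline cells, 14 were higher (16.9% of all genes) and 4 lower (17.5%). There Lingo1 lay at 4.87, but Lingo3 (0.62), Lingo2 (0.34), Cntn5 (0.91), Tenm3 (0.95), Lrrtm4 (-0.71), Flrt3 (-0.58) and Slitrk3 (-0.31) were not past the limit. Without those at 0.1% or more in interneuron markers, 19 against 23 cells, 17 were higher (18.7%) and 5 lower (18%), and Lingo2 turned to -0.01. SDs over cells were mostly between 2 and 4 log2 units, larger than most of these differences.

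Because every saline cell belongs to the second title series, the comparison was repeated with the 15 KA EGFP- cells of that series against the same 27 saline cells. Here 15 members were higher (38.5%; 16.5% of all genes) and 4 lower (10.3%; 20.1% of all genes), with the median gene at -0.46 before it was subtracted. In both calculations, which share the saline cells and the 15 KA cells, 12 members were higher (30.8%, against 10.1% of all genes). They were Adgrl1, Adgrl3, Cntn5, Lingo1, Lingo2, Lingo3, Lrfn1, Lrfn5, Nrxn3, Ptprs, Tenm3 and Tenm4. Of these, Cntn5, Lrfn1 and Tenm3 each had a count in only 2 of the 27 saline cells. They were measured almost only through KA cells, so their place among the higher members is weak support. Lower in both were 3 (7.69%, against 11.4% of all genes): Cadm1, Cadm2 and Lrrtm4. Slitrk4 (2.22 over all titles, 0.81 within the second series) and Nlgn3 (1.20 and -0.62) passed only with the first-series cells, as did Flrt3 (-1.71 and -0.45), Ptprd (-2.01 and -0.90), Slitrk3 (-1.13 and -0.15) and Slitrk5 (-1.12 and -0.77) on the lower side.

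**Figure D2:**
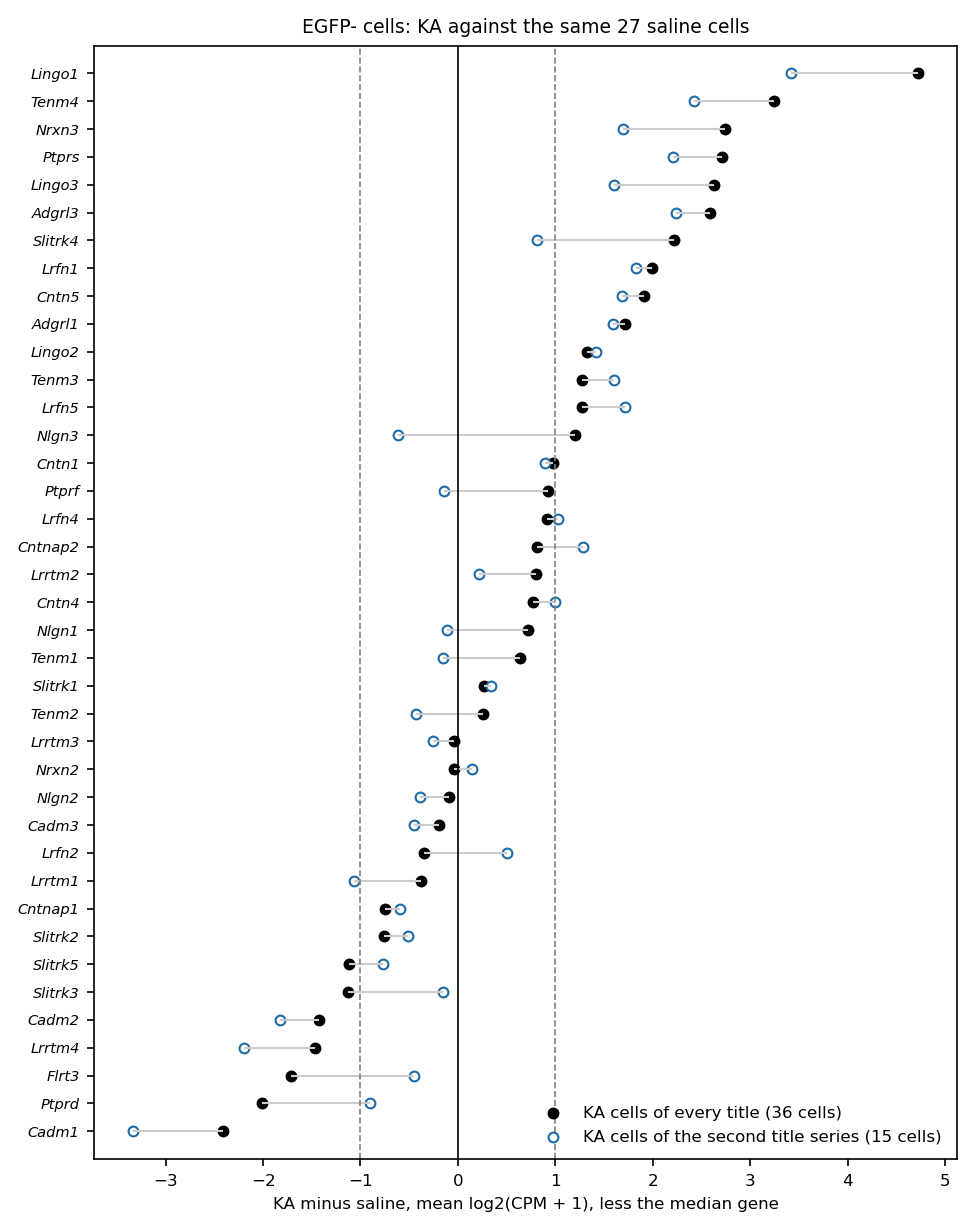
Relative difference in mean log2(CPM + 1), KA minus saline, for the 39 measured members in EGFP- cells, with all 36 KA cells (filled) and with the 15 KA cells of the second title series (open), each against the same 27 saline cells. Dashed lines mark 1 log2 unit either way; Lingo1 lies farthest right (4.72 and 3.42) and Cadm1 farthest left (-2.41 and -3.33).

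Among the axonal receptors, Nrxn3 and Ptprs were higher after KA. Nrxn3, a neurexin, had a median of 76.1 CPM in KA EGFP- cells (range 0 to 927) and of 0 CPM in saline EGFP- cells (0 to 100), and it had a count in 24 of 36 and 10 of 27 cells. The highest saline cell thus lay close to the middle of the KA cells, and the low ends overlap at 0. Its mean log2(CPM + 1) was 4.52 ± 3.63 after KA and 1.35 ± 2.10 after saline (SD over 36 and 27 cells), a relative difference of 2.74 over all titles and 1.69 within the second series. Ptprs, which binds proteoglycans as well as postsynaptic partners, had a median of 358 CPM after KA (0 to 1799) and of 18.3 CPM after saline (0 to 719). Its mean was 7.08 ± 2.97 after KA and 3.93 ± 3.20 after saline, a relative difference of 2.71 and 2.21.

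Related genes of the same families lay on the lower side or nearer the median gene (Nrxn2 at -0.04 and Ptprf at 0.92). Ptprd had a median of 0.786 CPM after KA (0 to 1358) and of 51.2 CPM after saline (0 to 743). Its relative difference was -2.01 over all titles and -0.90 within the second series.

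Ptprs and Ptprd were also set against each other within single cells, with no test possible. This view was added after the values had been seen. The pair was chosen because its genes had been called in opposite directions. A difference between treatments therefore follows from the choice and adds no support. Both genes had a count in 15 of 27 KA EGFP+, 21 of 36 KA EGFP-, 2 of 5 saline EGFP+ and 18 of 27 saline EGFP- cells. Depth cancels only in those cells. Per kb of exon, Ptprs exceeded Ptprd in 26 of 27 KA EGFP+ and 28 of 36 KA EGFP- cells, and in 3 of 5 saline EGFP+ and 10 of 27 saline EGFP- cells. Within the second series the share among KA EGFP- cells was 9 of 15. In these KA cells Ptprs was therefore the more abundant of the 2 phosphatases, while saline EGFP- cells were divided, with Ptprd ahead in 14 of 27. The log2 ratio of Ptprs to Ptprd averaged 4.03 ± 4.01 in KA EGFP- and -0.70 ± 4.04 in saline EGFP- cells (SD over 36 and 27 cells).

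**Figure D3:**
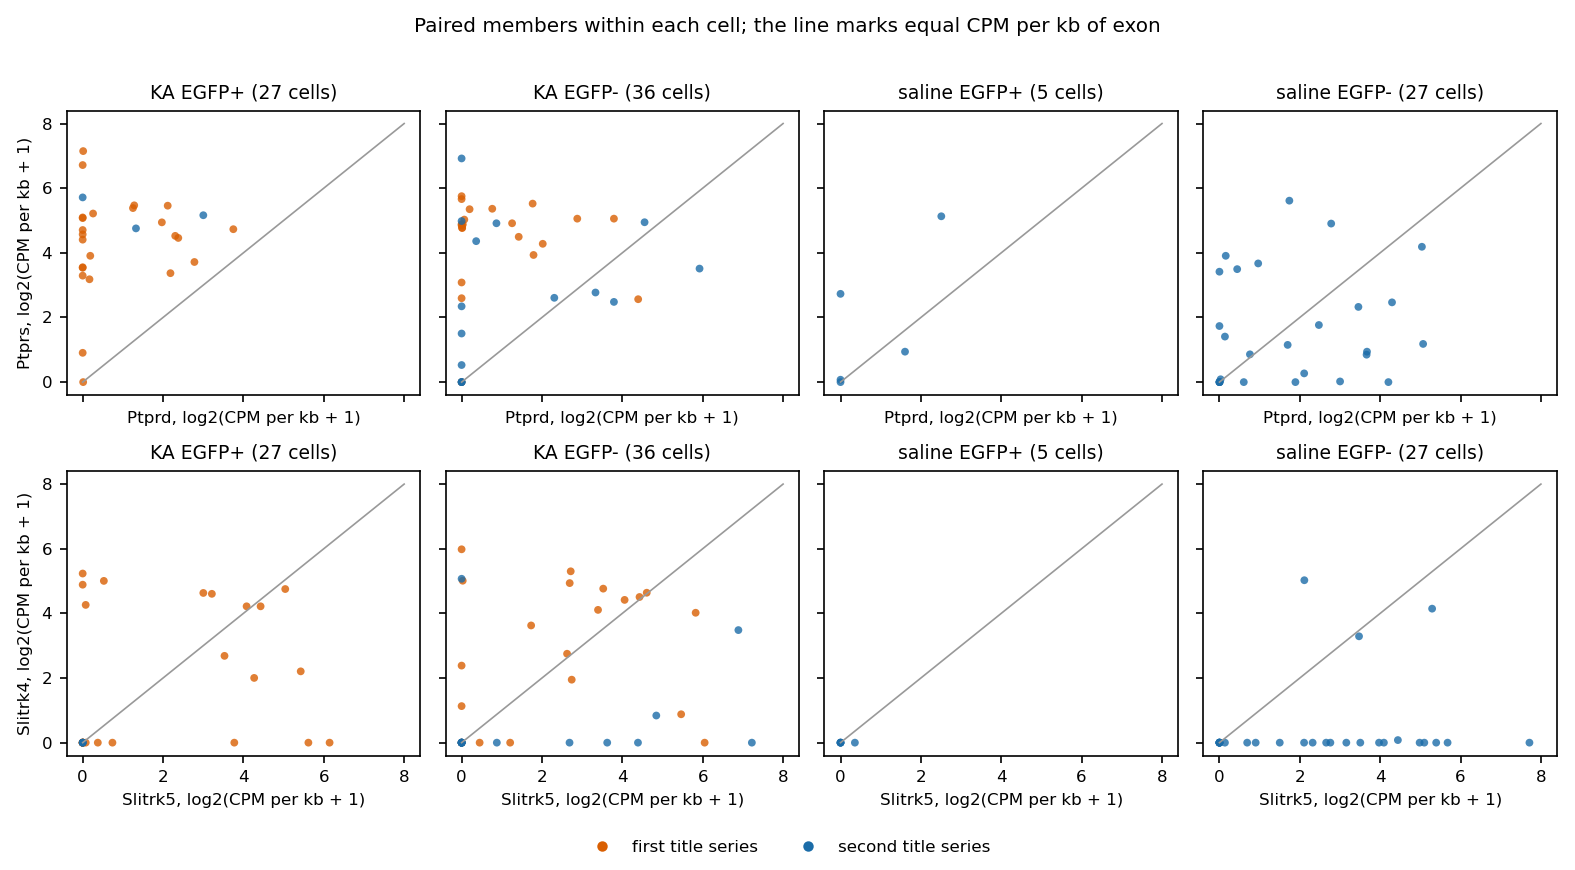
Levels of Ptprs against Ptprd (upper row) and Slitrk4 against Slitrk5 (lower row) in every cell of the 4 groups, as log2(CPM per kb of exon + 1), coloured by title series; the line marks equal levels. In the KA EGFP+ panel 26 of 27 cells lie on the Ptprs side, and in the saline EGFP- panel 20 of 27 lie on the Slitrk5 side.

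Among postsynaptic partners the Slitrk and Lrrtm genes were mostly not higher. Slitrk4 had a median of 7.12 CPM in KA EGFP- cells (0 to 544) and of 0 CPM in saline EGFP- cells (0 to 276), where 19 of 36 and 4 of 27 cells held a count. Nearly all of these KA cells, 16 of the 19, were of the first title series. Slitrk3 had medians of 0.483 CPM after KA and 2.65 CPM after saline, and Slitrk5 of 19.7 CPM after KA and 27.9 CPM after saline. Within cells Slitrk4 exceeded Slitrk5 per kb in 14 of 36 KA EGFP- cells and in 1 of 27 saline EGFP- cells. Among KA EGFP- cells of the second series it did so in 1 of 15. This pair, too, was chosen because its genes had been called in opposite directions.

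Lrrtm4, a postsynaptic protein that binds neurexins and heparan sulphate proteoglycans, had a median of 6.09 CPM in KA EGFP- cells (0 to 607) and of 53.5 CPM in saline EGFP- cells (0 to 867). Its mean was 3.35 ± 3.49 after KA and 4.39 ± 3.82 after saline, a relative difference of -1.47 and, within the second series, -2.20. The 2 groups cover nearly the same range, and 21 of 36 and 17 of 27 cells held a count. Lrrtm1, the most abundant member per kb in saline EGFP- cells, had means of 5.15 ± 3.82 after KA and 5.10 ± 4.03 after saline and passed the limit only within the second series.

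Lrfn1 and Lrfn5 belong to the SALM proteins, which bind postsynaptic scaffolds or receptor phosphatases. Lrfn1 had a count in 16 of 36 KA EGFP- cells (0 to 629 CPM) and in 2 of 27 saline EGFP- cells (0 to 101 CPM), a relative difference of 1.99 and 1.83. Lrfn5 had a median of 93.0 CPM after KA (0 to 997) and of 30.7 CPM after saline (0 to 652), and 31 of 36 and 17 of 27 cells held a count. Of the neuroligins, the neurexins' best known postsynaptic partners, Nlgn3 differed by 1.20 over all titles, Nlgn1 by 0.72 and Nlgn2 by -0.09. Nlgn3 had a median of 43.3 CPM in KA EGFP- cells (0 to 601) and of 0.199 CPM in saline EGFP- cells (0 to 278), but 0 CPM in the KA EGFP- cells of the second series.

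Of the latrophilins and teneurins, partners across the cleft, both measured latrophilins and 2 of 4 teneurins were higher. Adgrl3 had a median of 34.04 CPM in KA EGFP- cells (0 to 650) and of 0.602 CPM in saline EGFP- cells (0 to 79.8). The uppermost KA cells lay above the whole saline range, and the means were 4.53 ± 3.03 after KA and 1.52 ± 1.92 after saline. Its relative difference was 2.59, and 2.24 within the second series. Adgrl1 had a median of 144 CPM after KA (0 to 659) and of 22.4 CPM after saline (0 to 466). Tenm4 had a median of 91.9 CPM after KA (0 to 843) and of 0 CPM after saline (0 to 565), with means of 4.75 ± 3.53 and 1.07 ± 2.24 and relative differences of 3.24 and 2.42. The highest saline cell, at 565 CPM, lay among the upper KA values. Tenm3 had a count in 14 of 36 KA EGFP- cells and in 2 of 27 saline EGFP- cells. Flrt3, which also binds latrophilins, had a median of 0.350 CPM after KA and of 48.6 CPM after saline.

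All 3 measured Lingo genes were higher, and Lingo1 showed the widest difference of the measured members. Lingo1 had a median of 288 CPM in KA EGFP- cells (0 to 1567) and of 0 CPM in saline EGFP- cells (0 to 214.9). It was counted in 31 of 36 KA and 11 of 27 saline cells. After thinning to 1000000 counts the cells with a count were 29 of 36 after KA and 9 of 27 after saline. All 21 first-series KA cells held between 125 and 949 CPM, whereas the 15 second-series KA cells spread from 0 to 1567 CPM with a median of 31.6 CPM. The means were 6.82 ± 3.42 after KA and 1.68 ± 2.82 after saline, and the relative difference 4.72 over all titles and 3.42 within the second series. Lingo3 was counted in 21 of 36 KA and 7 of 27 saline cells, with relative differences of 2.63 over all titles and 1.60 within the second series. Lingo2 was counted in 23 of 36 KA and 13 of 27 saline cells (1.32 and 1.42). Without the cells rich in mossy cell markers Lingo1 lay at 4.87, but Lingo3 at 0.62 and Lingo2 at 0.34. Without those rich in interneuron markers Lingo2 lay at -0.01 and Lingo3 at 2.37. What Lingo2 and Lingo3 do in granule cells is less well known.

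Of the contactins and Cadm genes, immunoglobulin-type molecules, 1 of 3 measured contactins was higher over all titles and 2 of 3 Cadm genes were lower. Cntn5 had a count in 18 of 36 KA EGFP- cells (0 to 454 CPM) and in 2 of 27 saline EGFP- cells (0 to 104 CPM), with relative differences of 1.91 and 1.68. Cntn1 had a median of 242.8 CPM after KA and of 40.9 CPM after saline but remained just under the limit at 0.98. Cadm1 had a median of 85.2 CPM in KA EGFP- cells (0 to 781) and of 215.7 CPM in saline EGFP- cells (0 to 3494), with means of 4.87 ± 3.78 and 6.84 ± 3.26. Its relative difference was -2.41, and -3.33 within the second series, where 8 of 15 KA cells held a count against 25 of 27 saline cells. In the first series the KA median was 179 CPM. Cadm2 had a median of 46.7 CPM after KA and of 56.9 CPM after saline, and relative differences of -1.43 and -1.83.

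**Figure D4:**
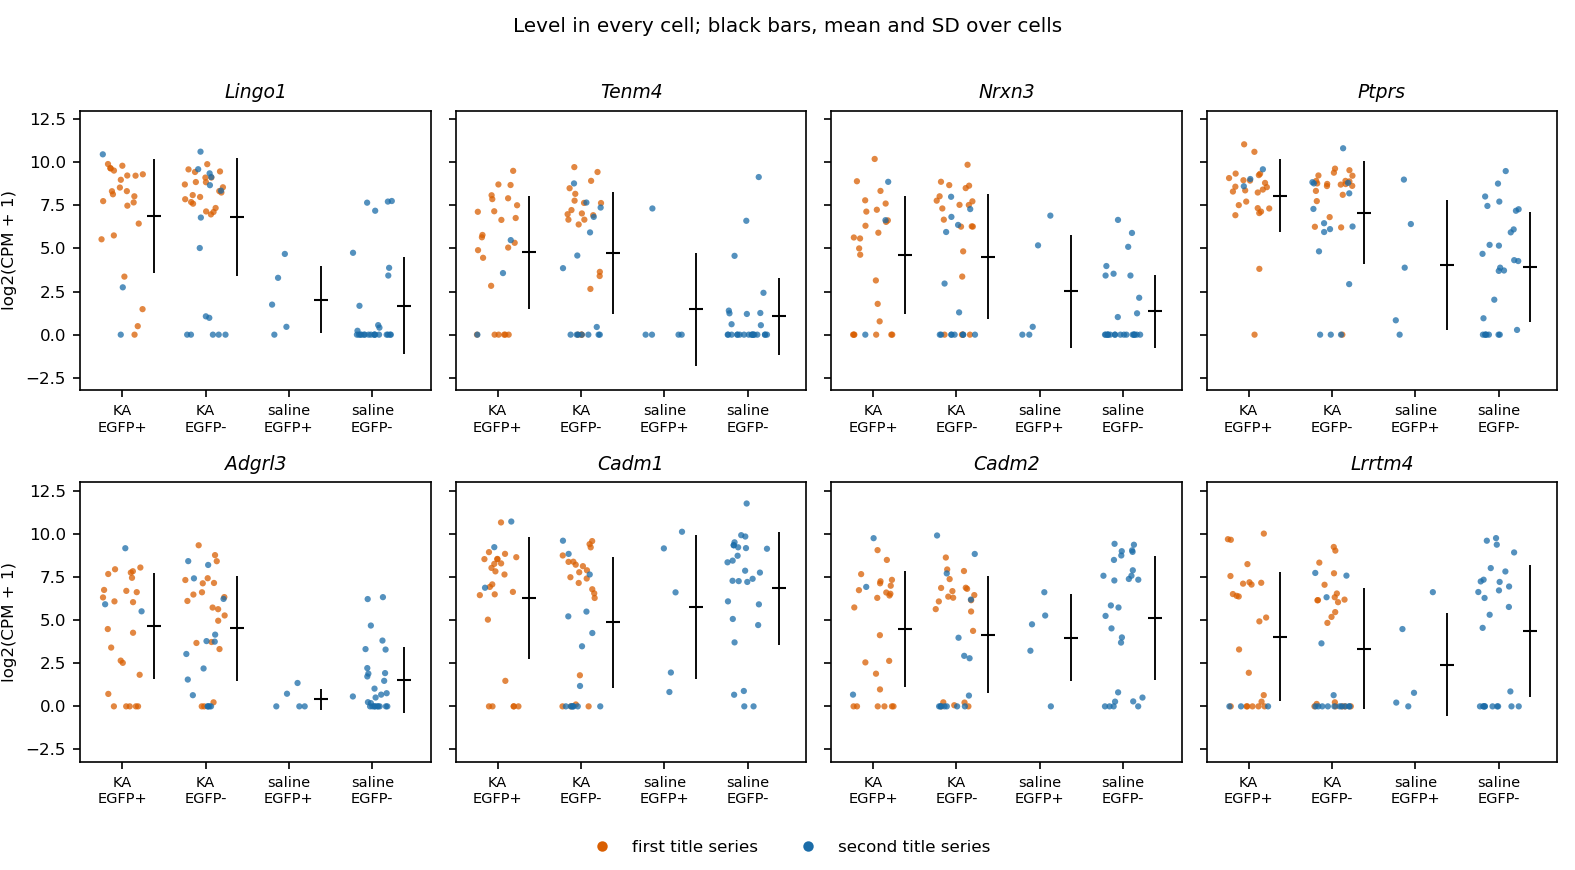
Level in every cell, as log2(CPM + 1), of 8 named members in KA EGFP+, KA EGFP-, saline EGFP+ and saline EGFP- cells, coloured by title series; black bars give the mean and SD over cells. Lingo1, Tenm4, Nrxn3, Ptprs and Adgrl3 are at or near 0 in more saline than KA cells, while the means of Cadm1, Cadm2 and Lrrtm4 are lower in KA EGFP- than in saline EGFP- cells.

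Sequence upstream of the start was looked at for the members that differed in both calculations. RefSeq's promoter table for GRCm38.p6 had an entry for 13 of these 15 genes (none for Cadm1 and Lrfn1). The 250 bases before the start are printed for 2 genes that were higher and 2 that were lower after KA, whose entries begin within 300 bases of the annotated gene start. They are Lingo1 (chr9:56796311-56796560, minus strand), Tenm4 (chr7:96170994-96171243, plus strand), Cadm2 (chr16:67620909-67621158, minus strand) and Lrrtm4 (chr6:80018627-80018876, plus strand). Capitals mark matches to a GC box or a TATA box on either strand.
Lingo1: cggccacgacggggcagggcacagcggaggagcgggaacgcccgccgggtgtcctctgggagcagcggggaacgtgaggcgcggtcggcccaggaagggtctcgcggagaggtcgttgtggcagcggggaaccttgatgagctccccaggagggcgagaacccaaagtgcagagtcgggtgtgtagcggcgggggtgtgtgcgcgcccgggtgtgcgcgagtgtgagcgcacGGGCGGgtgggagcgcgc
Tenm4: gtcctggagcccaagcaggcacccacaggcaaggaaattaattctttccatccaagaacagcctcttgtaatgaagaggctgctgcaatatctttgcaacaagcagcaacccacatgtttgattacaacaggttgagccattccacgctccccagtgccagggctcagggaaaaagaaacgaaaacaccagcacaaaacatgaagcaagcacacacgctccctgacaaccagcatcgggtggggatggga
Cadm2: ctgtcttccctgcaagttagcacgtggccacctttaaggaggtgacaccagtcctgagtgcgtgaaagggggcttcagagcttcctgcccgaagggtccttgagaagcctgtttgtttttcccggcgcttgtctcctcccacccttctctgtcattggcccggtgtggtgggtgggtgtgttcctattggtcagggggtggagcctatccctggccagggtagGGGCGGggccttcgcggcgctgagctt
Lrrtm4: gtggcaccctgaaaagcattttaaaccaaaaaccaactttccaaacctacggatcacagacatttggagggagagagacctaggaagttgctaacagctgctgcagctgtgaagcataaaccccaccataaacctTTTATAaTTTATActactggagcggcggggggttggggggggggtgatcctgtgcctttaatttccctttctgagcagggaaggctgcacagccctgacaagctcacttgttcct
Lingo1 had the letters GGGCGG (GC box) once, 18 bases before the start, and Cadm2 once, 27 bases before it; 33% of 32536 promoter windows of this length hold them. The letters TATAAA of the TATA box lay in Lrrtm4, read on the minus strand, at 115 and 108 bases before the start, and 12.3% of all windows hold it. No match to TGACG (CRE half-site, 17.9% of all windows), the AP-1 site (TGA and TCA with 1 base of any kind between them, 6.73%) or GCGNGGGCG (EGR site, 4.74%) lay in these windows. The Lingo1 window had a GC content of 72.8% and 31 CpGs, Tenm4 50.8% and 4, Cadm2 60.8% and 10, and Lrrtm4 49.2% and 3, where the median window had 52.4% and 6.

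The next comparison asked whether cells with a contralateral axon differed after KA, 27 EGFP+ against 36 EGFP- cells. Few members did: 3 of 39 were higher in EGFP+ cells (7.69%; 9.35% of all genes) and 1 was lower (2.56%; 8.02% of all genes). The title series weigh on this comparison, since 24 of 27 EGFP+ cells but 21 of 36 EGFP- cells are of the first. Inside the first series 1 was higher (2.56%; 11.6% of all genes) and 6 were lower (15.4%; 12.1% of all genes). EGFP+ and EGFP- cells both occur only from title 20 on, and among those first-series titles (5 against 21 cells) 4 were higher (21.6% of all genes) and 8 lower (22.3%). With 3 EGFP+ against 15 EGFP- cells of the second series, 16 were higher (32.2% of all genes) and 8 lower (24.4%).

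Tenm2, a teneurin, was the member higher both over all titles and inside the first series, as were 5.74% of all genes. It had a median of 114 CPM in KA EGFP+ cells (0 to 1069) and of 8.83 CPM in KA EGFP- cells (0 to 407), with means of 5.14 ± 3.57 and 3.32 ± 3.33. Both groups reach 0, and the highest EGFP+ cells lie above every EGFP- cell. The relative difference was 1.56 over all titles and 1.32 inside the first series, but 0.23 among titles 20 to 48. Lrfn1 was the member lower in both, as were 5.23% of all genes, with relative differences of -1.09 and -1.04 and a count in 11 of 27 EGFP+ and 16 of 36 EGFP- cells. Nlgn3 (1.82 over all titles, 0.48 inside the first series) and Cadm1 (1.16 and 0.08) were near the median gene within the first series.

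**Figure D5:**
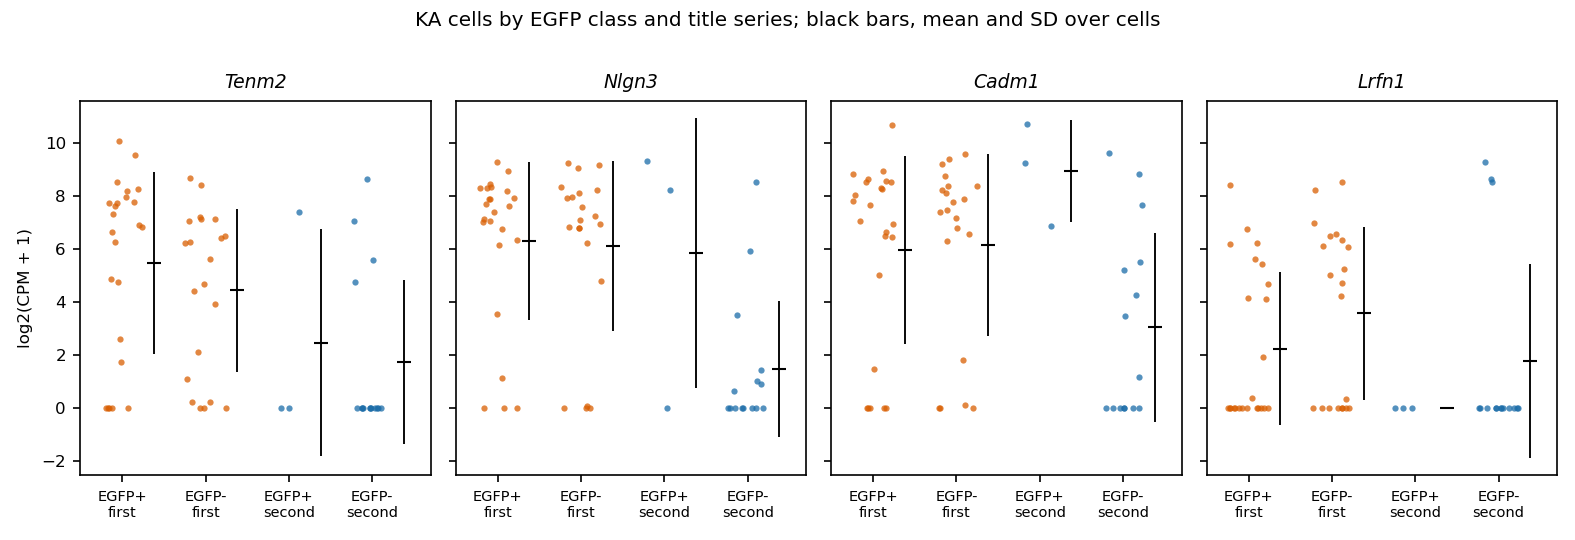
Level in every KA cell, as log2(CPM + 1), of the 4 members called in EGFP+ against EGFP- cells, by EGFP class and title series; black bars give the mean and SD over cells. Nlgn3 and Cadm1 look alike in the first-series columns and differ in the second, where there are 3 EGFP+ and 15 EGFP- cells.

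After saline, 5 EGFP+ cells stood against 27 EGFP- cells, all of the second title series. Of the 39 members 4 were higher in EGFP+ cells (10.3%; 21.5% of all genes), namely Lingo3, Lrfn1, Nrxn3 and Tenm1, and 10 were lower (25.6%; 22.1% of all genes). Lrrtm1 had values of 345, 0, 0, 0.725 and 0 CPM in the EGFP+ cells and a median of 98.1 CPM in the EGFP- cells, a relative difference of -2.66. Slitrk5, the lowest at -3.44, had 0, 1.48, 0, 0 and 0 CPM, against a median of 27.9 CPM in EGFP- cells. The higher values each rested on 1 or 2 of the 5 cells. For Lingo3 they were 0, 867, 0, 0 and 0 CPM, and for Tenm1 0, 0, 524, 0.725 and 1.56 CPM. Of these 5 cells 4 carried at least 0.1% of their counts in microglial markers, whose summed level had a median of 23800 CPM, against 194 CPM in saline EGFP- cells. Without the cells of either class over that limit 1 EGFP+ cell remained, with 9 members higher and 13 lower (24.5% and 28.8% of all genes). Without the EGFP+ cell at 345 CPM of Lrrtm1, 8 were higher and 4 lower (22.7% and 23.4%).

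Between treatments among EGFP+ cells, 27 after KA against 5 after saline, 13 members were higher (33.3%; 24.9% of all genes) and none was lower, where 26% of all genes were. The median gene itself differed by 1.34. This comparison shares no cell with that of the EGFP- cells, and 9 members were higher in both (23.1%, against 8.11% of all genes): Adgrl1, Adgrl3, Lingo1, Lingo2, Nlgn3, Ptprs, Slitrk4, Tenm3 and Tenm4. No member was lower in both, where 8.02% of all genes were. Of these 9, all but Nlgn3 and Slitrk4 were also higher in the EGFP- cells within the second series, which makes 7 members (17.9%, against 4.75% of all genes). None was lower in all of these comparisons (4.63% of all genes). Tenm3 and Slitrk4 had no count in the saline EGFP+ cells and a count in few saline EGFP- cells. They were measured almost only through KA cells, so their place among the higher members is weak support. Lingo1 had a median of 282 CPM in KA EGFP+ cells (0 to 1407) and values of 0, 0.371, 8.83, 24.7 and 2.35 CPM in saline EGFP+ cells. Adgrl3 had a median of 59.7 CPM (0 to 577) after KA and values of 0, 0, 0.662, 0 and 1.56 CPM after saline. For both genes most KA cells lay above all 5 saline cells. All but 3 of the KA EGFP+ cells belong to the first title series and all saline cells to the second. With those 3 KA cells against the 5 saline cells, 22 members were higher (56.4%; 35.6% of all genes) and 2 were lower (5.13%; 26.5% of all genes). The count of none lower did not hold in other sets of cells: 15 were higher and 6 lower without cells over the microglial limit (17 against 1 cell; 31.5% and 27.9% of all genes), and 13 and 8 among cells labelled as passed (27.4% and 27.5%). With counts pooled over cells Adgrl1 turned to -1.95, and with the 3 second-series KA cells Slitrk4 turned to -0.10.

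The size of the series difference itself was read in the KA EGFP- cells, 21 of the first against 15 of the second, a view added after the values had been seen. The median gene differed by 1.56, and beyond it 13 members were higher in the first series (23.1% of all genes) and 4 were lower (20.8%). Among the 13 were Lingo1, Lingo3, Nrxn3, Slitrk4 and Tenm4, which were also called higher after KA over all titles. Cadm1 and Lrrtm4, which were lower after KA, were higher in the first series.

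Genes that work with these molecules were read from lists of partners. Of 37 other synaptic adhesion molecules and secreted organisers 30 were measured, and in EGFP- cells 9 were higher and 7 lower after KA (30% and 23.3%, against 16.6% and 17% of all genes). Within the second series 7 were higher and 9 lower (23.3% and 30%, against 16.5% and 20.1%). The extremes were Ncam2 (3.29), an immunoglobulin-type adhesion molecule, and C1ql2 (-6.39), a complement-like organiser of mossy fibre synapses. C1ql2 averaged 2.04 ± 3.49 in KA EGFP- and 8.0 ± 3.40 in saline EGFP- cells. Of 30 intracellular scaffold genes 29 were measured, with 7 higher (24.1%), led by the postsynaptic scaffold Shank1 (2.58), and 5 lower (17.2%, at the share of all genes), led by Lin7c (-2.39), an adaptor that works with the kinase Cask. Of 8 genes of the Nogo receptor complex, to which Lingo1 belongs, 6 were measured; 2 were higher, Omg (2.51), a ligand of the receptor, and Tnfrsf19 (1.33), a co-receptor (33.3% of the 6), and none was lower. Within the second series 1 was higher and 2 were lower, with a median of -0.91, and Omg lay at 1.38 and Tnfrsf19 at 0.52.

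From cell to cell the members gave mostly low rank correlations. Over the 21 first-series KA EGFP- cells the median Spearman rho among 435 pairs of 30 members was 0.07, and the highest was 0.65 for Tenm2 and Lrfn5. Over the 27 saline EGFP- cells it was 0.25 among 105 pairs of 15 members, where Slitrk3 and Adgrl1 reached 0.70. These values are given as a description, because cells of a group share mice and differ in depth.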

How the data were processed

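Single-cell patch-seq libraries were compared by KA or saline and by EGFP class. The authors deposited a table of raw counts per gene and cell for the cells that passed quality control, one for all cells, and a normalized signal in which each cell's counts are multiplied by a constant (0.118 to 147.5). Genome build GRCm38 and the tools STAR, kallisto, featureCounts and Trimmomatic are listed, per the submitters' processing notes; roles, versions and the use of strand are not given in the sources used here. The table's 92 spike-in rows held 6 counts and stayed out. Of 115 labelled cells, the 95 in the quality-controlled table were kept; 82 of these are labelled Passed and 13 Failed, and treatment and EGFP class were taken from the labels. No 2 cells had identical values.

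CPM were computed from the counts with Python 3.11.15, numpy 2.4.6, pandas 2.3.3 and scipy 1.17.1, and TMM sizes (an alternative) with edgeR 4.0.16 in R 4.3.3. Levels are means of log2(CPM + 1). Genes with a count in at least 20 cells were measured, and a call was a difference of 1 log2 unit from the median measured gene. On simulated counts, strongly raised and lowered genes of high level were recovered. That check does not cover members at low counts or changes near the call. Counts without molecular identifiers are not independent molecules. Sequences came from RefSeq (GRCm38.p6) and gene extents from GENCODE release M21. Another gene that the symbol rule takes in is not reported here and stayed out of every count of members. Members, lists and alternatives were chosen with earlier results of these data known. Named were members past the call for KA against saline in EGFP- cells over all titles and within the second series, those past it for EGFP+ against EGFP- cells after KA over all titles and in the first series, the 10 with the highest mean in saline EGFP- cells, and family members called in opposite directions; of each partner list the extremes were named. Figures were drawn with matplotlib 3.10.9.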

Additional observations from a re-analysis of the deposited data

Results flagged for a closer look

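In the 5 saline EGFP+ cells, 9 of the 23 named members had 1 cell far from the other 4, as log2(CPM + 1). The cells are numbered 3 to 7 after the 7 labelled. Chance alone flags some of any 24 values examined this way, and a gene at 0 in 4 cells is flagged by any count in the fifth. Cell 4 stood apart for Cntn5 (3.25), Flrt3 (9.81, the others 0 to 1.29), Lingo2 (0.45), Lingo3 (9.76) and Slitrk5 (1.31). Cell 3 stood apart for Lrfn1 (4.24) and Lrrtm1 (8.44, the others 0 to 0.79), and cell 5 for Slitrk3 (5.25) and Tenm4 (7.32). The higher call of Lingo3 in saline EGFP+ cells rests on cell 4 and that of Lrfn1 on cell 3.

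The 20 cells left out of the comparisons also held these genes. Pooled, all 55 members came to 4820 CPM in them, against 2520 CPM in the kept saline EGFP- cells, at a median of 474183 counts per left-out cell. The left-out cells include KA and saline cells of both EGFP classes, so a mixture is set against a single class here.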

How the results depend on the processing

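For KA against saline in EGFP- cells, 8 of the named members kept their call in all 16 settings: Adgrl1, Adgrl3, Cadm1, Lingo1, Lrfn1, Nrxn3, Ptprs and Tenm4. The settings reuse the same cells or parts of them, and Lrfn1 was measured almost only through KA cells. Leaving out cells rich in mossy cell or interneuron markers was chosen after seeing the data. Percentages in parentheses give the share of all genes called in that direction. Counts are of 39 members, of 55 with no filter and of 31 with a minimum of 40 cells. The 14 higher became 22 with no filter on genes (14.6%) and 22 when not set against the median gene (28.6%). The 7 lower became 3 with 10 CPM added (6.28%), 4 in the second series (20.1%) and 4 without cells rich in mossy cell markers (17.5%). Of the called members, Lingo2 turned to -0.01 without interneuron-marker-rich cells and Nlgn3 to -0.62 in the second series. For EGFP+ against EGFP- cells after KA, the 3 higher became 5 on the authors' signal (15.8%), 5 with 0.1 CPM added (17.3%) and 1 with pooled CPM (10.7%). They became 1 in the first series (11.6%) and 16 in the second (32.2%). Without mossy-marker-rich cells 6 were higher (17.2%), and without interneuron-marker-rich cells 5 (15%). The 1 lower became 5, 8 and 2 under the same first 3 settings (15.1%, 16.6% and 10.8%). It became 0 with 10 CPM added (1.21%), no filter (2.51%), a minimum of 40 cells (10.4%) or no median gene (3.93%). In cells with at least 4000 genes 5 were lower (10%), and in cells labelled Passed 4 (9.06%). Without cells rich in microglial markers 3 were lower (11%), and without mossy-marker-rich cells 6 (15.1%). The first series, titles 20 to 48 and the second series had 6, 8 and 8 (12.1%, 22.3% and 24.4%). For EGFP+ against EGFP- cells after saline, the 4 higher became 7 on the signal, 2 and 7 with 10 and 0.1 CPM added, 8 with pooled CPM, 7 in cells with at least 4000 genes, 9 without microglia-rich cells, 7 without interneuron-marker-rich cells, 7 in cells labelled Passed, 2 without the median gene and 4 to 8 leaving out 1 saline EGFP+ cell (8 without cell 3). The 10 lower became 4 with 10 CPM added, where all genes were again called less often. They became 20 with pooled CPM (38.7%), 16 with no filter (19.2%) and 16 without the median gene (37.4%). Leaving out 1 saline EGFP+ cell gave 4 to 13 (21.4% to 23.5%), with 4 without cell 3 (23.4%). For KA against saline in EGFP+ cells, the 13 higher became 20 on the signal (31.6%), 20 with 0.1 CPM added (32.5%) and 20 with pooled CPM (39.4%). They became 31 with no filter (27.9%), 33 without the median gene (59%) and 22 in the second series (35.6%). Leaving out 1 cell gave 10 to 18 (25.7% to 26.8%). The 0 lower, for which no test was possible, became 2 on the signal (31.7%), 2 with TMM (27.7%) and 3 with 0.1 CPM added (32.1%). They became 6 with pooled CPM (36%), 1 with no filter (10.1%), 3 with a minimum of 40 cells (27.7%) and 1 when thinned (25.7%). Cells with at least 4000 genes gave 4 (28.3%). Leaving out microglia-rich, mossy-marker-rich or interneuron-marker-rich cells gave 6, 1 and 2 (27.9%, 25.1% and 25.6%). Cells labelled Passed gave 8 (27.5%) and the second series 2 (26.5%). Leaving out 1 cell gave 0 to 3 (26.4% to 28%). After saline, Flrt3 (0.31) and Lrrtm1 (0.05) reversed with pooled CPM, and Lingo3 in cells with at least 4000 genes (-0.15) and without cell 4 (-0.15; -0.15 to 2.63 leaving out 1 cell). Among EGFP+ cells, Adgrl1 (-1.95) and Lrrtm1 (-0.41) reversed with pooled CPM, Tenm2 without microglia-rich cells (-1.11, 17 cells against 1), and Slitrk4 (-0.10) and Slitrk5 (-0.36) in the second series. The cause was not tested. No paired analysis was possible because the result comes from no test and replicate numbers only name cells. Depth limits the members at low counts, most of all in the saline EGFP+ cells.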
